A study of Homo sapiens with 12 samples.

Results

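JK136 was compared directly with Rhosin in 3 gastric cancer cell lines, using the 3 arrays of each compound and pairing them by line. The comparison takes 6 of the 12 arrays of the study: AGS with Rhosin and with JK136, MKN1 with Rhosin and with JK136, and SNU601 with Rhosin and with JK136. The arrays were chosen by their titles, and no array of the solvent DMSO enters the main test. AGS, MKN1 and SNU601 are established lines of human stomach carcinoma, grown in the same serum-containing medium. Rhosin is a small molecule that inhibits RhoA, and JK136 is known here only by its code name. The labels state neither doses nor times of exposure, so a difference between the compounds cannot be told apart from a difference in dose or time. Each line had 1 array per compound, and the 3 lines are therefore the replicates.

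RhoA is a molecular switch. Guanine nucleotide exchange factors load it with GTP, GTPase-activating proteins turn it off, and in its active form it binds effectors such as formins, LIM-kinase pathways and myosin regulators that build actin bundles and contract the cell. Actin assembly also frees the coactivator MRTF to act with the serum response factor SRF on genes of the cytoskeleton, and contractile cells keep the coactivators YAP and TAZ in the nucleus. The arrays measured transcripts and not RhoA activity, so they show these branches only through gene expression.

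The values are log2 signals on the scale of RMA, the array summary described with the processing, and a difference of 1 is a 2-fold change. Of 14884 genes with a symbol, the 8930 at or above the 40th percentile of mean level (4.61) were tested. Since the filter used the mean of the 6 arrays, 21 of the 106 tested genes named here had both arrays of at least 1 line under that value. They include ZSCAN31, MIR648, ESRP1 and ERBB3 in MKN1, and not all of them are marked where they are named. Across all transcript clusters the 2 arrays of a line correlated at 0.978, 0.985 and 0.983 (Pearson's r for AGS, MKN1 and SNU601). Pairs from different lines gave 0.930 to 0.957. Split into parts, the typical gene owed 87% of its sum of squares to line and 2.68% to compound (medians). The epithelial genes EPCAM, KRT8, KRT18 and KRT19 lay between 6.02 and 10.7 on all 6 arrays. The leukocyte marker CD14 and the endothelial markers PECAM1 and VWF lay below the filter on average, and the fibroblast marker LUM reached 8.87 in MKN1 and at most 3.50 in the other lines. Markers with a symbol on the array were 4 of 5 epithelial, 1 of 4 leukocyte, 2 of 4 fibroblast and 2 of 3 endothelial. Of longer lists, 4 of 7 immune and 3 of 8 endothelial genes with a symbol passed the filter. LYZ reached 11.9 and ESAM 6.41, both in SNU601. In every triplet of values below, the order is AGS, MKN1 and SNU601. Gene lists count the members that had a symbol on the array and passed the filter, which was 28 of 42 interferon-induced, 13 of 24 heat shock, 12 of 25 p53, 24 of 34 immediate-early, 16 of 32 ATF4 and 17 of 25 SRF genes.

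With JK136, set against Rhosin, most measured interferon-induced, heat shock and p53-target genes had mean differences above 0 and most immediate-early, SRF and ATF4-target genes below 0. The list medians lay farthest from 0 in AGS, except that of the SRF targets, which did so in MKN1, and no single gene separated the compounds after adjustment. With limma, 0 of 8930 genes (0%) lay higher with JK136 at an adjusted p under 0.05 and 0 (0%) lower, and the smallest adjusted p was 0.820. At an unadjusted p under 0.05 there were 211 genes higher (2.36%) and 263 lower (2.95%), 474 in all against 446.5 expected from 5% of the genes. With each array centred on its median the split turned, to 267 higher (2.99%) and 200 lower (2.24%). The mean difference was above 0 in 4323 genes (48.4%) and below 0 in 4607 (51.6%). It had 1 sign in all lines in 1177 genes above 0 (13.2%) and in 1298 below 0 (14.5%). With MKN1 left out, limma called 3 genes, CLU and IGFL2 higher and PIM1 lower. Both AGS levels of CLU, 2.68 with Rhosin and 4.22 with JK136, lay under the filter value. With SNU601 left out it called 1, CEACAM5, at an adjusted p of 0.0311.

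The unadjusted 95% confidence interval of a gene's difference, built from limma's moderated spread, had a median half-width of 0.28. It lay within 1.5-fold of no difference for 8054 genes (90.2%). For those genes a p that misses the threshold is compatible with differences smaller than that. The intervals of other genes that were not called reach past 1.5-fold. That of CEACAM5 ran from −1.98 to −0.76 and that of EGR1 from −2.09 to −0.33. The missing calls do not show that the compounds act alike.

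Within lines, the differences spread over genes with an SD of 0.355 in AGS, 0.222 in MKN1 and 0.229 in SNU601. In AGS 322 genes lay at least 1.5-fold higher with JK136 (3.61%) and 353 lower (3.95%). MKN1 had 71 higher (0.795%) and 93 lower (1.04%), and SNU601 had 99 higher (1.11%) and 82 lower (0.918%). A line has no replicate of a compound, so these counts have no test. They describe pairs of arrays.

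Over all genes the lines shared little of the pattern, while the overlaps of their 1.5-fold lists given below exceeded the shares of all genes. Of the 322 genes higher in AGS, 191 (59.3%) were above 0 in SNU601, against 48.3% of all genes, and 165 (51.2%) were above 0 in MKN1, against 50.5% of all. Of the 353 lower in AGS, 57.2% were below 0 in SNU601, against 51.7% of all, and 49.3% in MKN1, against 49.4%. Of the 71 genes higher in MKN1, 42.3% were above 0 in AGS, against 48.3% of all. Of the 93 lower in MKN1, 57% were below 0 in AGS, against 51.6% of all. Both 1.5-fold lists of AGS and SNU601 held 22 of the higher genes, which is 22.2% of the SNU601 list. Of all genes, 3.61% were in the higher list of AGS. MKN1 shared 4 higher genes with AGS, 5.63% of the MKN1 list. Among the lower genes AGS shared 11 with SNU601, 13.4% of the SNU601 list, and 16 with MKN1, 17.2% of the MKN1 list. Of all genes, 3.95% were in the lower list of AGS. Across genes, the differences correlated with Pearson's r of 0.125 between AGS and SNU601, 0.0449 between MKN1 and SNU601 and −0.0019 between AGS and MKN1. Genes are not independent replicates, and the arrays of a line share that line's RNA background.

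**Figure D1:**
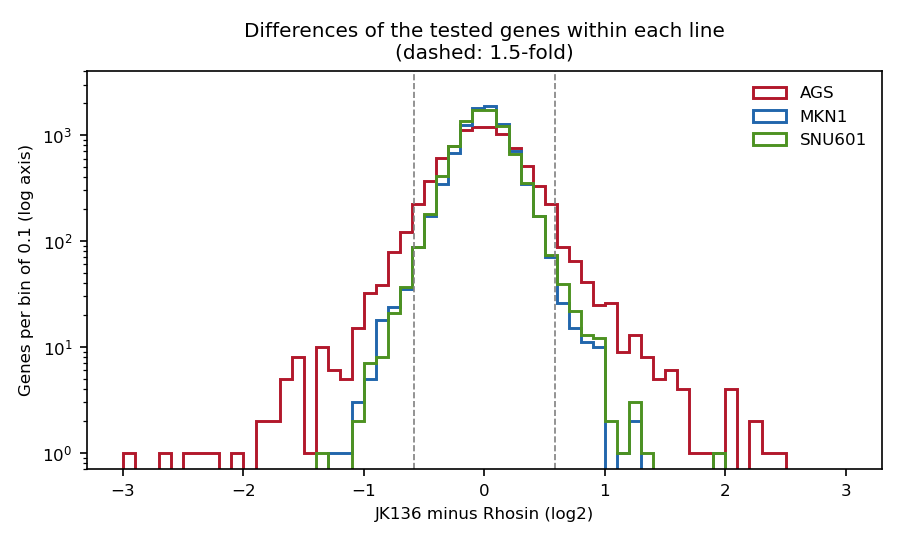
Number of tested genes (log axis) by the difference JK136 minus Rhosin on the log2 scale, in bins of 0.1, for AGS, MKN1 and SNU601; dashed lines mark 1.5-fold. The AGS outline is the widest, with an SD of 0.355 against 0.222 and 0.229 in MKN1 and SNU601.

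RHOA transcript stood at 10.23, 10.04 and 10.02 with Rhosin and at 9.99, 9.88 and 9.99 with JK136. The arrays of JK136 were the lower ones in each line. The mean difference was −0.14 ± 0.11 (log2, limma's moderated SE, n = 3 lines), with a 95% interval from −0.40 to 0.12 and a limma adjusted p of 0.860. Every ± below is this SE, which draws on the spread of all tested genes as well as the gene's own. RHOB, a relative of RHOA that growth factors and stress induce quickly, stood at 8.76, 7.07 and 6.72 with Rhosin and at 7.69, 7.14 and 6.86 with JK136. It was lower with JK136 in AGS alone, with a difference of −1.07, and the other lines had 0.07 and 0.14. RHOC, the third close relative, differed by −0.19, −0.09 and 0.40, with a mean of 0.04 ± 0.14.

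Targets of SRF and MRTF lay below 0 in 15 of 17 tested members, with a median of −0.13 against −0.01 for all genes. At the level of single lines the medians were −0.11, −0.19 and −0.03. Members below 0 in a line were 9, 14 and 10 of 17, against 51.6%, 49.4% and 51.7% of all genes. In AGS and SNU601 the members were thus nearly split. None of the 17 had an unadjusted p under 0.05. Against 14.5% of all genes, 3 of the 17 were below 0 in all lines. These were FHL2, a LIM-domain coactivator, with −0.42, −0.10 and −0.21, the focal adhesion protein ZYX with −0.40, −0.20 and −0.08, and the actin-associated PDLIM7 with −0.19, −0.17 and −0.20. TAGLN, a smooth-muscle actin-binding protein often used as an MRTF readout, had −0.62, −0.49 and 0.26. With AGS left out the list's median was −0.12, about as low as with all lines.

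Targets of YAP and TAZ split, with 6 of 11 above 0 and 5 below. The list's median of mean differences was 0.03, and it was −0.05 without AGS and −0.05 without MKN1. The line medians were −0.08, −0.05 and −0.04, so each lay below 0. Members below 0 in a line were 6, 6 and 9 of 11, against 51.6%, 49.4% and 51.7% of all genes. ANKRD1, a muscle ankyrin-repeat protein and sensitive YAP target, stood at 9.20, 5.20 and 5.06 with Rhosin and at 9.62, 5.64 and 6.30 with JK136. The JK136 level was the higher in each line, by 0.42, 0.44 and 1.24, and the mean was 0.70 ± 0.17 with a limma adjusted p of 0.855. CCN2, the matricellular protein CTGF, had −0.91, 0.02 and −0.04. AJUBA, a LIM protein that restrains the Hippo kinases, had −0.49, −0.34 and −0.20.

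Genes with 1 direction in all lines are the nearest to a common difference between the compounds. At least 1.5-fold in every line, 1 of 8930 genes lay higher (0.0112%) and 1 lower (0.0112%). The lower one is a Y-linked transcript and is not described. The higher one was SNAR-F, a small noncoding RNA of a family of near-identical copies, so its signal may come from several of them. SNAR-F stood at 5.93, 4.58 and 5.96 with Rhosin and at 7.02, 5.32 and 6.72 with JK136. Its mean difference of 0.87 ± 0.12 had the smallest p of all genes and an adjusted p of 0.820. A mean difference of at least 1.5-fold with 1 sign was reached by 20 genes higher with JK136 and 15 lower.

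The lowest mean difference among those belonged to CEACAM5, the carcinoembryonic antigen, a glycoprotein of gut epithelium (transcript cluster 16862548). CEACAM5 stood at 10.45, 4.37 and 10.21 with Rhosin and at 8.18, 3.12 and 9.62 with JK136. The JK136 array was the lower in each line, with differences of −2.27, −1.26 and −0.58, and both MKN1 levels lay under the filter value. Its mean was −1.37 ± 0.27 with an interval from −1.98 to −0.76 and an adjusted p of 0.855 by limma. On the DMSO arrays, which enter no test, CEACAM5 stood at 9.50 in AGS and 9.20 in SNU601, between the compounds in AGS and below both in SNU601.

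TIPARP codes for an ADP-ribosyltransferase that the aryl hydrocarbon receptor induces and that in turn restrains that receptor (transcript cluster 16947287). TIPARP stood at 8.59, 9.13 and 8.77 with Rhosin and at 7.51, 8.48 and 8.35 with JK136. The Rhosin array was the higher one in each line, and the mean difference was −0.72 ± 0.15. The DMSO arrays held 7.58, 8.41 and 8.29, within 0.07 of the JK136 arrays. TIPARP is shown by its promoter because it had 1 direction in all lines and belongs to a transcription factor's known targets. The bases are the 250 upstream of the RefSeq start in GRCh38.p14, chr3:156674340-156674589 on the + strand, with the core of the aryl hydrocarbon receptor element, GCGTG on either strand, in capitals.
TIPARP: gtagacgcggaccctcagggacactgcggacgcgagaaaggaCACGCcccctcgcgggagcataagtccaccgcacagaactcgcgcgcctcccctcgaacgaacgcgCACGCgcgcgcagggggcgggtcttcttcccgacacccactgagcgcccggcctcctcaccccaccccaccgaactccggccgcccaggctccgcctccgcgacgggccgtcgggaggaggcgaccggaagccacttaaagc
That core matched at 2 positions. It was present in 3 of the 3 tested members of the receptor's list, TIPARP, AHR and NFE2L2, in 36.5% of all promoters and in 51.1% of those of tested genes, so a match is common. AHR, the receptor itself, had −0.05 ± 0.11 and NFE2L2, the antioxidant regulator NRF2, had −0.19 ± 0.13.

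Several further genes lay lower with JK136 in every line. GDA, guanine deaminase, stood at 8.07, 10.85 and 8.10 with Rhosin and at 7.46, 10.32 and 7.64 with JK136. Its 3 differences of −0.60, −0.53 and −0.46 were close to each other. PPARG, the nuclear receptor of fat cell and epithelial differentiation, stood at 6.16, 6.67 and 8.28 with Rhosin and at 5.47, 6.22 and 7.91 with JK136, a mean of −0.50 ± 0.12. DOK7, an adaptor of the muscle kinase MuSK, had −0.58, −0.46 and −0.40. POU2F3, the master factor of tuft cells, had −0.38, −0.76 and −0.65, its MKN1 levels of 4.43 and 3.67 being under the filter, and SECTM1, a secreted and membrane protein of epithelial and myeloid cells, had −0.75, −0.83 and −0.25. The homeobox gene HOXC13 had −0.81, −0.70 and −0.25, with AGS levels of 4.57 and 3.75, also under it. In each of these genes all 3 differences were below 0, and limma gave each an adjusted p of 0.855.

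Genes higher with JK136 in every line came from varied functions. PHYH, which oxidises branched fatty acids in peroxisomes, stood at 5.52, 5.56 and 3.82 with Rhosin and at 5.93, 5.996 and 4.88 with JK136. LIFR, the receptor of leukaemia inhibitory factor, stood at 6.85, 7.60 and 5.03 with Rhosin and at 7.78, 7.88 and 5.65 with JK136. SAMHD1, a nucleotide hydrolase that limits viruses, stood at 7.94, 8.57 and 7.19 with Rhosin and at 8.98, 8.88 and 7.67 with JK136. In these genes the JK136 array was the higher in each line, with mean differences of 0.64 ± 0.15 for PHYH, 0.61 ± 0.14 for LIFR and 0.61 ± 0.15 for SAMHD1. ECM1, an extracellular matrix protein, had close values in the lines, 0.42, 0.45 and 0.52. IGFL2, a growth factor-like gene, had 1.45, 0.11 and 0.94, and without MKN1 it was called. PGAM4, a phosphoglycerate mutase retrocopy whose signal may be shared with its near-identical parent, had 0.60 ± 0.15. ZSCAN31, a zinc finger gene, had 0.64 ± 0.14, and the kinase STK33 had 0.59 ± 0.15, with SNU601 levels of 3.42 and 4.38, both under the filter.

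**Figure D2:**
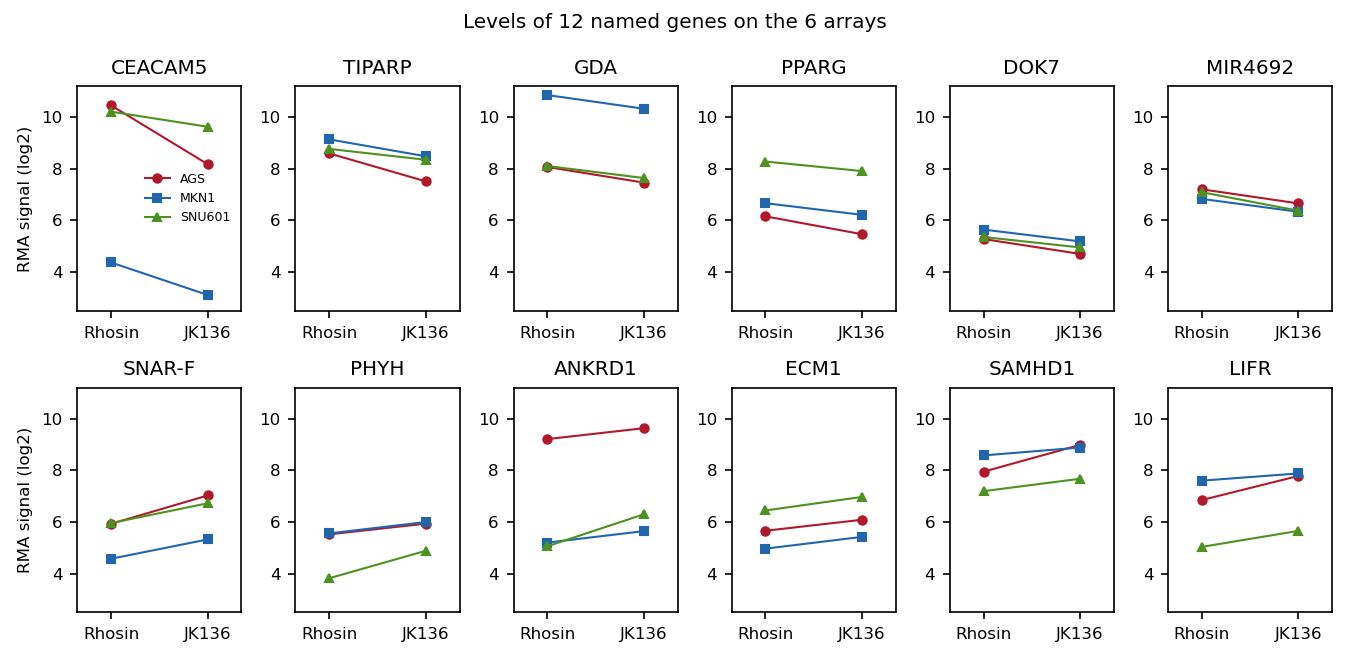
RMA signal (log2) on the Rhosin and the JK136 array of AGS, MKN1 and SNU601 for 12 named genes, 1 array per point, with lines joining the arrays of a cell line. CEACAM5 is lower with JK136 in each line, with −2.27, −1.26 and −0.58, and ECM1 is higher, with 0.42, 0.45 and 0.52.

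MicroRNA genes had more members below 0 in all lines than above. Of 331 tested, 62 (18.7%) were below 0 in all lines and 25 (7.55%) above, against 14.4% and 13.6% of the 8032 protein-coding genes tested. Their median was −0.06, and their median level of 5.47 was below the 6.27 of protein-coding genes. The 567 tested genes of other classes had 14.5% below 0 in all lines and 10.9% above, at a median level of 5.40. The split by class was not examined with centred arrays. An array of this kind reads the precursor or its host transcript and not the mature miRNA. MIR4692 stood at 7.20, 6.83 and 7.09 with Rhosin and at 6.66, 6.33 and 6.38 with JK136, and MIR648 had −0.38, −0.56 and −0.75. MIR365A was the one in the other direction among the genes of largest difference, with 0.89, 0.12 and 1.04. Their RefSeq mature sequences (GRCh38.p14) show which molecules these precursors give, with the seed, bases 2 to 8, in capitals.
hsa-miR-4692: uCAGGCAGuguggguaucagau
hsa-miR-648: aAGUGUGCagggcacuggu
hsa-miR-365a-5p: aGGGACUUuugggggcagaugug
hsa-miR-365a-3p: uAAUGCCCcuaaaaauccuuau
No seed is shared between them.

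Interferon-induced genes lay higher with JK136 than with Rhosin in AGS. These genes respond to type I interferon through the factor ISGF3 and code for antiviral proteins. Of 28 tested members, 25 had a mean difference above 0 and 3 below, and the median was 0.44 against −0.01 for all genes. The line medians were 1.14, −0.07 and 0.32, so MKN1 did not share the direction, and the list's median was 0.11 without AGS and 0.70 without MKN1. An unadjusted p under 0.05 was found for 7 members above 0 and 1 below, against 2.36% and 2.95% of all genes. IFI44, an antiviral gene, stood at 4.34, 5.13 and 5.94 with Rhosin and at 6.72, 5.27 and 6.71 with JK136. IFIT1, which binds foreign RNA caps, stood at 5.49, 3.49 and 4.72 with Rhosin and at 7.93, 3.01 and 5.49 with JK136. In AGS the JK136 array was higher by 2.38 for IFI44 and 2.44 for IFIT1, whereas in MKN1 IFIT1 lay under the filter. BST2, the virus tether, had 1.67, 0.04 and 0.34, the RNA sensor RIGI had 1.41, −0.02 and 0.43, and the ubiquitin-like ISG15 had 1.39, −0.47 and 0.39. IFITM2, a membrane protein against viral entry with close paralogs, ran the other way in all lines, with −0.40, −0.51 and −0.26.

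In AGS the DMSO array lay between the compounds for much of the interferon list. IFIT1 stood at 6.80 with DMSO and IFI44 at 5.79. The median differences from DMSO in AGS were 0.57 for JK136 and −0.49 for Rhosin, which share the DMSO array. DMSO lay between in 22 of the 28 members (78.6%), against 41.9% of all tested genes and 84.9% of the 675 genes at least 1.5-fold apart in AGS.

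The promoter of IFIT1 is printed because this gene was the highest of the AGS differences. The interferon-stimulated response element was present in 13 of 22 list promoters found in RefSeq (59.1%), against 3.57% of all 35116 promoters of 300 bases. The bases are the 250 upstream of the start in GRCh38.p14, chr10:89392373-89392622 on the + strand, with the element's letters on either strand in capitals.
IFIT1: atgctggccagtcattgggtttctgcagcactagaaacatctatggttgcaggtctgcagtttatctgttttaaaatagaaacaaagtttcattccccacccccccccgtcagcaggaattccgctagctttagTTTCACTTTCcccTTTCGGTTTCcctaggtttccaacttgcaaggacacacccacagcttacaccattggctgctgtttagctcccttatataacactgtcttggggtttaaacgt
It held 2 matches. A match describes letters and not binding.

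Heat shock genes code for chaperones that the factor HSF1 induces, and all 13 tested members had a mean difference above 0, with 9 above 0 in every line. Their median was 0.31, with 0.50, 0.19 and 0.05 in the lines and 0.13 without AGS. An unadjusted p under 0.05 was reached by 3 members. Of all genes, 2.36% reached it above 0, and 13.2% were above 0 in every line. HSPH1, a large chaperone of the HSP110 family, stood at 8.25, 9.61 and 9.51 with Rhosin and at 9.27, 9.83 and 9.70 with JK136. HSPB1, the small heat shock protein HSP27, stood at 7.98, 10.61 and 9.83 with Rhosin and at 9.03, 10.83 and 9.97 with JK136. HSPH1 differed by 1.02, 0.22 and 0.19 and HSPB1 by 1.05, 0.22 and 0.15, so both were higher in each line and most in AGS. HSPA1A and HSPA1B, the inducible HSP70 genes, are near-identical, so probes may read both. HSPA1A had 1.01, 0.19 and 0.0023, and HSPA1B had 0.93, 0.12 and −0.07. CACYBP, an HSP90-associated protein, had 0.50, 0.33 and 0.15. The AGS medians against DMSO were 0.20 for JK136 and −0.37 for Rhosin.

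The heat shock element GAANNTTC was present in 6 of 13 list promoters (46.2%), against 6.77% of all. HSPB1 is shown as a member with it, the 250 bases upstream of its start in GRCh38.p14, chr7:76302423-76302672 on the + strand, with the match in capitals.
HSPB1: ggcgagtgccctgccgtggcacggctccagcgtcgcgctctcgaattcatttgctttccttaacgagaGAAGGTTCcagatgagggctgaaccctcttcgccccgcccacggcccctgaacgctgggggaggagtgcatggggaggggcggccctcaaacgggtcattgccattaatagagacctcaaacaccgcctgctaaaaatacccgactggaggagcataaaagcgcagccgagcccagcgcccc
CHORDC1, HSPA1A, HSPA1B, HSPA1L and HSPB8 also held the letters.

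Other stress lists had smaller medians. Of 10 tested genes of endoplasmic reticulum stress, 8 lay above 0 and 4 in all lines, with a median of 0.11. Of all genes, 48.4% lay above 0 and 13.2% in all lines. MANF, a secreted factor of that response, had 0.66, 0.27 and 0.31, and CALR, the calcium-binding chaperone calreticulin, had 1.01, 0.08 and 0.12. HMOX1, the haem-degrading enzyme and NRF2 target, had 1.11, 0.05 and 0.60, although the NRF2 list as a whole had a median of 0.06. The metal-binding metallothionein MT1X had 0.40, 0.14 and 0.52, and its relative MT1F had 0.52, −0.85 and 0.51.

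Targets of p53, the DNA damage-activated tumour suppressor, lay above 0 in 11 of 12 tested members, with a median of 0.32. In all lines 5 were above 0, against 13.2% of all genes. Line medians were 0.70, 0.05 and 0.07, and the median without AGS was 0.06. SESN1, a sestrin that lowers mTOR activity, had 1.29, 0.06 and 0.61. AEN, an apoptosis-enhancing nuclease, had 0.88, 0.53 and 0.11, and TIGAR, a regulator of glycolysis, had 0.59, 0.46 and 0.29. TIGAR stood at 6.64, 5.42 and 5.82 with Rhosin and at 7.23, 5.87 and 6.11 with JK136. SESN2, which both p53 and ATF4 induce, was the member below 0, with −0.51, 0.34 and −0.26. In AGS the median against DMSO was 0.64 with JK136 and −0.05 with Rhosin.

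Immediate-early genes, switched on within minutes by growth factor signals and SRF, had a mean difference below 0 in 23 of 24 tested members, with a median of −0.22. The line medians were −0.64, −0.07 and −0.11, and 7 members were below 0 in all lines, against 14.5% of all genes. The median was −0.05 without AGS and −0.36 without MKN1. An unadjusted p under 0.05 was found for 5 members below 0 and 1 above, against 2.95% and 2.36% of all genes. EGR1, a zinc finger transcription factor, stood at 9.72, 9.78 and 7.84 with Rhosin. With JK136 it stood at 7.06 in AGS and 7.65 in SNU601, and in MKN1 it differed by −0.78. FOS, a subunit of the factor AP-1, stood at 6.95, 7.23 and 7.21 with Rhosin and at 5.55, 6.83 and 6.91 with JK136. JUNB, its partner, stood at 7.98, 8.38 and 7.46 with Rhosin and at 6.67, 8.20 and 6.98 with JK136. These 3 genes were lower in every line, most of all in AGS, with mean differences of −1.21 ± 0.38, −0.70 ± 0.21 and −0.66 ± 0.20. DUSP2, a phosphatase that switches off MAP kinases, had −0.94, −0.63 and −0.17, and IER5 was the one member above 0, with 0.34, 0.39 and 0.23. Against DMSO, the AGS median was −0.04 for JK136 and 0.64 for Rhosin.

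EGR1 is printed because it is a textbook target of SRF and was among the lowest in AGS, with −2.66. The serum response element, or CArG box, was found in 1 of 17 list promoters (5.88%), that of EGR1, in 1.29% of all promoters and in 0.951% of those of tested genes. The AP-1 element TGACTCA was in 5.88% of the list, 4.95% of all and 3.04% of tested promoters, and the CRE TGACGTCA in 17.6%, 1.85% and 3.21%. The bases are the 250 upstream of the start in GRCh38.p14, chr5:138465229-138465478 on the + strand, with CArG boxes in capitals.
EGR1: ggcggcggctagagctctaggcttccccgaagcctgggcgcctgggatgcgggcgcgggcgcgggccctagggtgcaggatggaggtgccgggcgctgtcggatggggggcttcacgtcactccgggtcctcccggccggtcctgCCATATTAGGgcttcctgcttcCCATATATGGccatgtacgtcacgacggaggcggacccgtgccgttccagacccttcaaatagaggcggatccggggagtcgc

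Feedback genes of the MAP kinase pathway, which many immediate-early signals pass through, had no common direction, with 7 of 15 above 0. SPRY4, an inhibitor of receptor signalling, had −1.01, −0.23 and −0.10, the cytokine LIF had −0.62, −0.12 and −0.64, and the receptor EPHA4 had 0.70, 0.11 and 0.35. The phosphatase DUSP6 had −1.20 in AGS and 0.12 in MKN1. Epithelial markers lay below 0 in 13 of 19, with a median of −0.11. In all lines 7 were below 0 and 3 above, against 14.5% and 13.2% of all genes. Among the lower were KRT8 with −0.51, −0.21 and −0.39 and ESRP1, an epithelial splicing factor, with −0.75, −0.46 and −0.08. Among the higher were the adhesion protein EPCAM with 0.04, 0.40 and 0.24 and the desmosome protein DSP with 0.40, 0.26 and 0.02. Gastric genes diverged. SOX2, a stem cell and stomach factor, stood at 5.26, 4.23 and 6.31 with Rhosin and at 6.99, 4.13 and 7.002 with JK136, while TFF1, a mucus peptide of the stomach surface, had −1.55, −0.63 and 0.08.

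**Figure D3:**
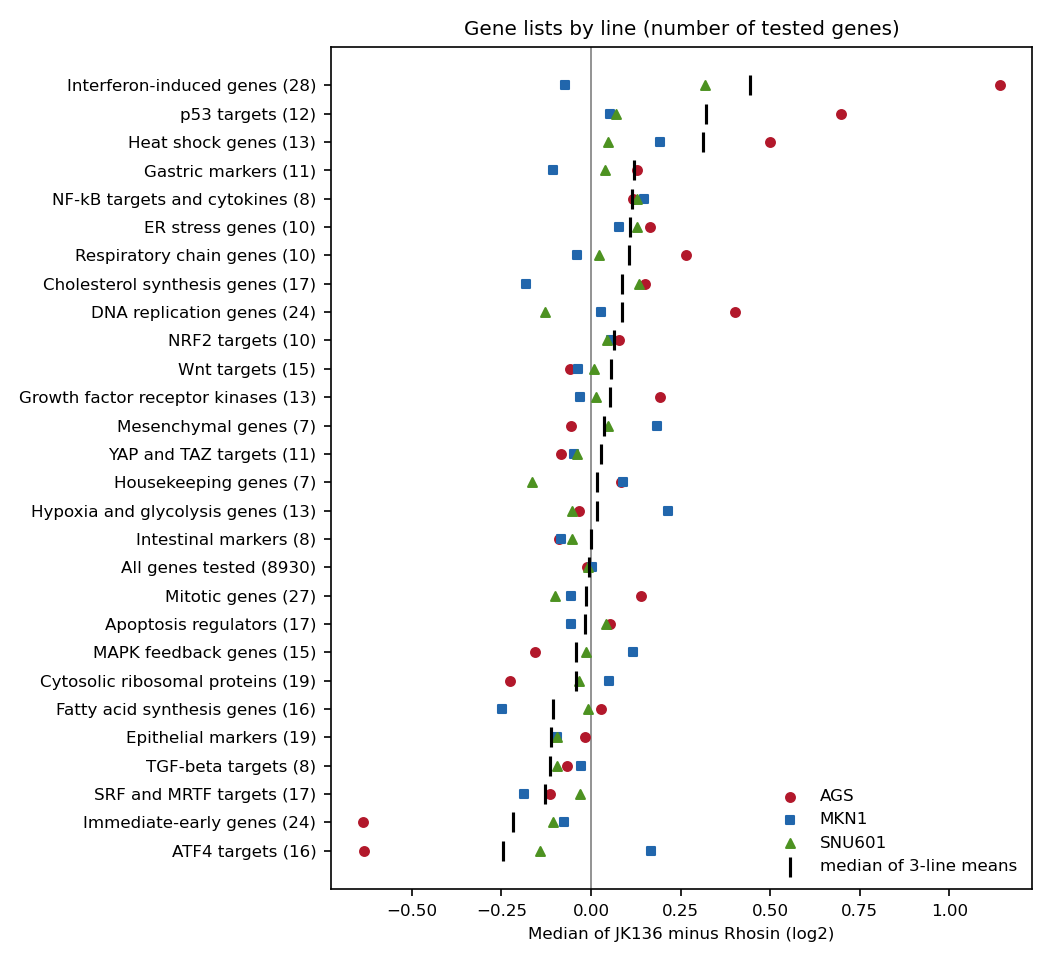
Median of JK136 minus Rhosin (log2) over the tested genes of each list with at least 5 of them, in AGS, MKN1 and SNU601 (symbols), with a tick for the median of the 3-line means. Interferon-induced genes reach 1.14 in AGS and −0.07 in MKN1, and immediate-early genes −0.64 in AGS and −0.07 in MKN1.

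Targets of ATF4, the amino acid stress factor, mostly lay lower with JK136 in AGS and SNU601 and higher in MKN1. Of 16 tested members 14 had a mean below 0 and 2 above, with a median of −0.25. Line medians were −0.63, 0.17 and −0.14, and the median was 0.02 without AGS and −0.46 without MKN1. DDIT4, an inhibitor of mTOR, stood at 9.62, 6.51 and 6.61 with Rhosin and at 7.15, 6.62 and 6.37 with JK136. CTH, an enzyme of cysteine synthesis, stood at 7.66, 5.46 and 5.43 with Rhosin and at 5.81, 4.58 and 5.40 with JK136. Its mean of −0.92 ± 0.28 rested on AGS and MKN1. ASNS, asparagine synthetase, had −1.31, 0.58 and −0.25, and the transcription factor ATF5 had −2.01, 0.12 and 0.26. PHGDH, the first enzyme of serine synthesis, was above 0 in all lines, with 0.13, 0.17 and 0.16. Its levels in AGS (4.15 and 4.28) and SNU601 (4.21 and 4.38) were under the filter value. The AGS medians against DMSO were −0.49 for JK136 and 0.20 for Rhosin.

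Medians of cell cycle genes lay above 0 in AGS and below 0 in SNU601. Of 24 DNA replication genes 17 lay above 0, the median was 0.09, and the line medians were 0.40, 0.03 and −0.13. The median was −0.05 without AGS, 0.13 without MKN1 and 0.21 without SNU601. E2F1, the transcription factor that drives these genes, had 0.35, 0.35 and 0.14, and CCNE2, cyclin E2, had 0.90, 0.11 and −0.15. In AGS the median against DMSO was −0.02 for JK136 and −0.38 for Rhosin. Mitotic genes had a median of −0.01, with 12 of 27 above 0, and −0.09 without AGS and 0.04 without either of the other lines. Their line medians were 0.14, −0.06 and −0.10, and in AGS 19 of the 27 lay above 0. Against most of the list in AGS, CENPA, the centromere histone, had −0.48, −0.03 and −0.27, and the mitotic kinase PLK1 had −0.19, −0.07 and −0.31.

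Lipid genes differed by branch. Fatty acid synthesis genes lay below 0 in 13 of 16 members. Their median was −0.10, and −0.06 without MKN1. The line medians were 0.03, −0.25 and −0.01, and 14 members lay below 0 in MKN1 against 7 in AGS and 8 in SNU601. SREBF1, their main regulator, stood at 6.30, 6.88 and 7.41 with Rhosin and at 5.78, 6.66 and 6.69 with JK136, and the desaturase SCD had −0.33, −0.61 and −0.19. Cholesterol synthesis genes had medians of 0.15, −0.18 and 0.13 in the lines, with 0.09 for the mean of lines and −0.04 without SNU601. HMGCS1, an early enzyme of that path, had 0.40, −0.41 and 0.88. INSIG1, a sterol-regulated brake on SREBP, had 0.25, −1.07 and −0.40. Cytosolic ribosomal proteins lay below 0 in 16 of 19, with a median of −0.04, and 0.02 without AGS.

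**Figure D4:**
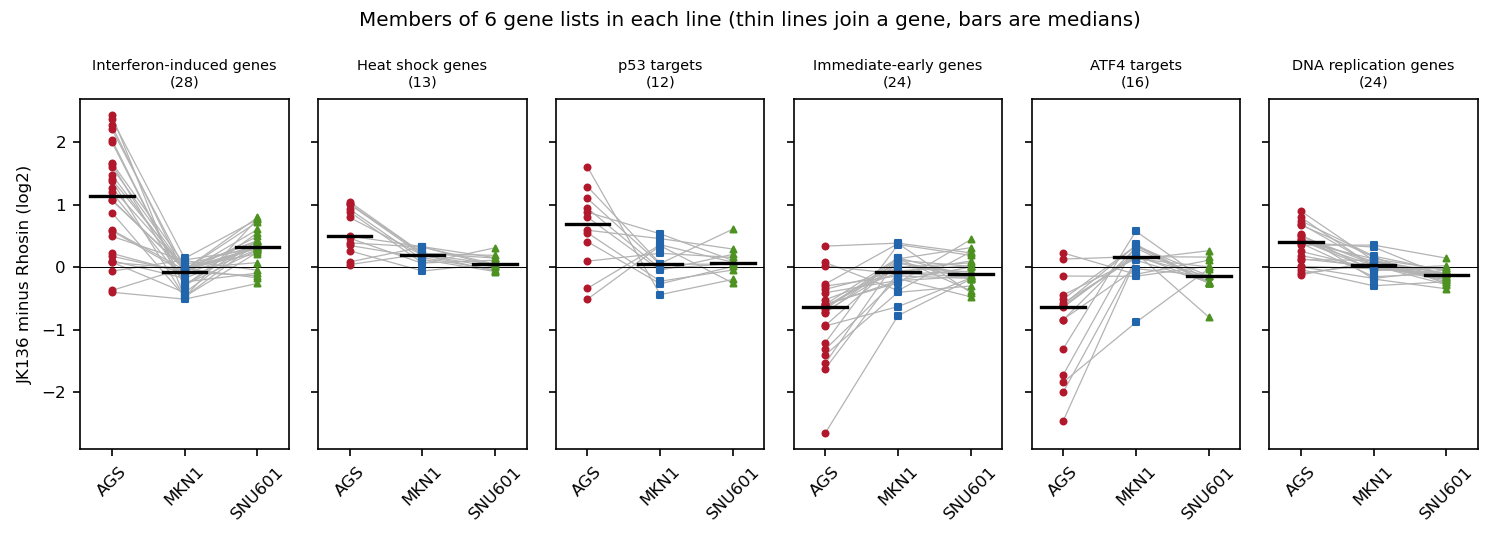
JK136 minus Rhosin (log2) of every tested member of 6 gene lists in AGS, MKN1 and SNU601, with thin lines joining a gene and bars at the medians. Interferon-induced, heat shock, p53, immediate-early, ATF4 and replication genes have AGS medians of 1.14, 0.50, 0.70, −0.64, −0.63 and 0.40.

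The genes farthest apart in single lines were mostly different ones. They were taken among genes at or above the filter value on at least 1 array of the line. In AGS the extremes above 0 were IFIT1, IFI44, SAMD9, IFIT3 and the Wnt antagonist DKK1, which stood at 7.18 with Rhosin and 9.24 with JK136. Below 0 were the noncoding LINC03033 with −2.97, EGR1, DDIT4, the UNC93 family gene UNC93A with −2.32 and CEACAM5. In MKN1 the highest was VIL1, the microvillus protein villin, with 1.29 between 3.51 with Rhosin, which is under the filter value, and 4.80 with JK136, and the actin-organising formin FHOD3 had 1.20. The lowest in MKN1 was PTGS2, the prostaglandin synthase COX-2, at 6.98 with Rhosin, 5.82 with JK136 and 5.41 with DMSO. In SNU601 the zinc finger gene ZNF430 had 1.98 and the membrane protein EMP3 had 1.22, with the microRNA gene MIR188 at −1.33. The lower of the 2 levels was under the filter value for ZNF430 (4.24 with Rhosin) and for MIR188 (4.29 with JK136). PIM1, a survival kinase, had −1.06 in SNU601 and −1.66 in AGS, and 0.21 in MKN1. PIM1 stood at 8.14, 5.84 and 7.77 with Rhosin and at 6.48, 6.05 and 6.71 with JK136. The lists of the 3 lines have no array in common, and the 399 genes (4.47%) within 0.1 of 0 in all lines were the other end of the range.

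**Figure D5:**
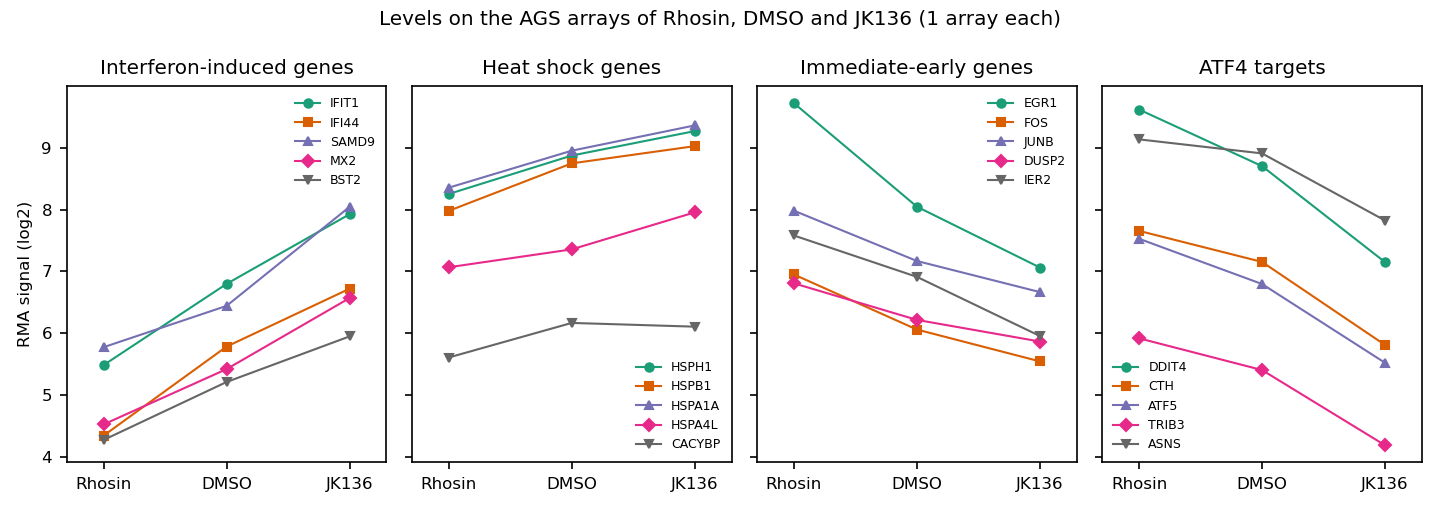
RMA signal (log2) on the Rhosin, DMSO and JK136 arrays of AGS, 1 array each, for 5 members of 4 gene lists. DMSO lies between the compounds for IFIT1, which goes from 5.49 through 6.80 to 7.93, and for EGR1, which goes from 9.72 through 8.05 to 7.06.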

How the data were processed

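Total RNA of the 12 treated cultures was hybridised to Affymetrix Human Gene 2.0 ST arrays, per the labels. The authors deposited log2 signals made with RMA (robust multi-array average: background correction, quantile normalization, summary of probes) in Affymetrix Expression Console, per the submitters' processing notes; versions and genome build are not given in the sources used here, so no gene coordinates are printed beside array values. Of 53617 transcript clusters, 16098 had 1 gene symbol in the platform annotation. Each gene was taken as its cluster of highest mean over the 6 arrays, and 779 genes had more than 1 cluster.

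The fit used limma 3.58.1 (R 4.3.3) on log2 values, compound and line being fixed terms (2 residual degrees of freedom) and Benjamini-Hochberg adjustment over all 8930 genes. Line is the pairing: deviations of the arrays of a line from the compound means correlated at 0.848, 0.936 and 0.909 in AGS, MKN1 and SNU601. P-values, intervals and SEs measure the spread between lines, not between cultures, as moderated by limma over all genes (8.20 total degrees of freedom). The SD of the 3 line differences was 0.85 for CEACAM5 and 1.29 for EGR1. For such genes the moderated SE is smaller than an SE from their own 3 differences. The number of arrays limits precision. On simulated data, 62% of changes of 0.5 and 100% of changes of 1, equal in all lines and set in 50 genes each, were called. Changes of 2 and 3 were set in 50 further genes each in the same run, which eases the adjustment for the smaller ones. The simulated noise took the spread that the fit estimated, and changes that differ between lines were not simulated. These rates therefore do not carry over to the genes measured here. CEACAM5, with a mean of −1.37, was not called. Genes with closer differences in the 3 lines were not called either, such as SNAR-F (1.10, 0.75 and 0.76) and GDA (−0.60, −0.53 and −0.46).

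Lists were described by counts and medians beside those of all genes, with no test, and the members and lists were chosen with earlier results of these data known. Named genes were the 10 in each direction called, or filled up by p from those of at least 1.5-fold mean difference and 1 sign; the 10 with the largest smallest difference over lines; the 5 extremes of each line; RHOA, RHOB and RHOC; and up to 4 of each list. Other list members named were chosen after their values were seen. Lists with fewer than 5 tested genes have no median here, and integrin and matrix genes were not analysed here. One item withheld from the text, and the gene lists that rest on its name, are not reported here. Promoters (300 bases, 6939 tested genes matched by symbol) and mature miRNAs (290 of 331 tested miRNA genes matched) came from RefSeq; the CArG box was added to the searched motifs after the data were seen.

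Alternatives covered all 12 arrays in the fit, no block, normalization, filters, a mean over clusters, the prior, fold thresholds and leaving out each line.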

Additional observations from a re-analysis of the deposited data

Results flagged for a closer look

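Some gene lists had medians of JK136 minus Rhosin (log2) on opposite sides of 0 in different lines. Each line had 1 array per compound, so the difference between lines was not tested.

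Targets of ATF4 had −0.63 in AGS and −0.14 in SNU601, with DDIT4 and ASNS among the lower genes of AGS, and 0.17 in MKN1. DNA replication genes had 0.40 in AGS and −0.13 in SNU601, and mitotic genes had 0.14 and −0.10 in the same lines. Cholesterol synthesis genes had 0.15 in AGS, 0.13 in SNU601 and −0.18 in MKN1. MAP kinase feedback genes had −0.16 in AGS and 0.12 in MKN1. Gastric markers had 0.13 in AGS and −0.11 in MKN1.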

How the results depend on the processing

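With 1 array per compound and line, limits are set by the spread between lines. The count of genes called stayed at 0 in both directions with limma under every other setting run except leaving out a line, where it ranged from 0 to 2 higher and from 0 to 1 lower. With all 12 arrays in the fit, 1 Y-linked transcript had an adjusted p under 0.1 and 360 genes higher and 455 lower had an unadjusted p under 0.05. With no replicate block, that is without the pairing by line, there were 5 higher and 8 lower. Without a filter 463 were lower, 3.11% of 14884 genes, and with the 60th percentile 164, 2.75% of 5954, against 2.95% of 8930.

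At least 1.5-fold in all lines there were 3 higher and 5 lower without a filter. Median centring or the 60th percentile left 0 lower. A threshold of 1.3-fold gave 9 and 7, and one of 2-fold gave 0 and 0. With 1 line left out, so that agreement of only 2 lines was asked, 2 to 22 were higher and 4 to 16 lower.

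Of 216 medians of 27 lists under alternatives, 27 had the opposite sign, 20 of them with a line left out and 7 under other settings. The cause was not tested. Of those 7, smaller shifts were in growth factor receptor kinases (−0.018 without a filter), apoptosis regulators (0.0061) and mitotic genes (0.0082) with centring and intestinal markers (0.0031 with quantile normalization). Medians that moved by more than the SD between the 3 line medians, with or without a change of sign, under settings other than leaving out a line were YAP and TAZ targets (−0.034 with the 60th percentile), NRF2 targets (0.042 with quantile normalization, 0.086 with centring), NF-kB targets (0.136 with centring, 0.0909 without a filter), mesenchymal genes (0.176 with the 60th percentile) and intestinal markers (0.022 with centring, 0.079 with the 60th percentile). Leaving out a line gave ranges of −0.049 to 0.131 for YAP and TAZ targets, 0.070 to 0.106 for NRF2, 0.019 to 0.052 for Wnt, 0.1002 to 0.176 for NF-kB, and −0.108 to −0.059 for TGF-beta targets. The same gave −0.130 to −0.063 for epithelial markers, −0.120 to 0.141 for mesenchymal genes, −0.029 to 0.123 for gastric and −0.062 to 0.051 for intestinal markers.

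Among single genes named, leaving out a line turned the sign of these, which ranged as follows. RHOB ranged from −0.50 to 0.10, RHOC from −0.14 to 0.15, ASNS from −0.78 to 0.16, ATF5 from −0.94 to 0.19, SESN2 from −0.38 to 0.044 and DUSP6 from −0.60 to 0.060. AXL ranged from −0.17 to 0.62, CCNE2 from −0.023 to 0.50, FHOD3 from −0.053 to 0.73, HMGCS1 from −0.0052 to 0.64 and ISG15 from −0.041 to 0.89. HK2 ranged from −0.77 to 0.10, PTGS2 from −0.57 to 0.083, MT1F from −0.17 to 0.52 and MIR188 from −0.60 to 0.33.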

Other observations

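In the following smaller lists most members had a mean difference above 0. Of 8 tested NF-kB targets and cytokines, 6 lay above 0 and 4 in all lines, against 48.4% and 13.2% of all genes. Their median was 0.11. The chemokine CXCL5 had 0.10, 0.45 and 0.76 in AGS, MKN1 and SNU601, and the adhesion molecule ICAM1 had 0.22, 0.27 and 0.39. Of 10 respiratory chain genes, 7 lay above 0, with a median of 0.11. Their line medians were 0.26, −0.04 and 0.02, and the median was −0.02 without AGS. Of 15 Wnt targets, 9 had a mean above 0, but 7, 7 and 8 lay above 0 in the lines. Their line medians were −0.06, −0.04 and 0.01, and 1 member was above 0 in all lines. AXIN2, a feedback inhibitor of the pathway, had 0.39, 0.41 and −0.07. Among hypoxia and glycolysis genes, the oxygen sensor EGLN1 had 0.50, 0.18 and 0.44, while the hexokinase HK2 had −1.34, 0.41 and −0.20. Among growth factor receptors, ERBB3 had −0.43, −0.22 and −0.31, and AXL had 1.28, −0.30 and −0.04.

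The fibroblast marker LUM had −0.09, −0.68 and −0.60, with levels of 8.87 and 8.19 in MKN1 with Rhosin and JK136. The part of other cell types in these values was not tested.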
